A study of Mus musculus with 6 samples.

Results

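The genes for CTCF, the cohesin ring, its loader and its release factors were followed in N2a cells, a mouse neuroblastoma line, with reduced levels of NPM1. They were the 10 genes *Ctcf*, *Smc1a*, *Smc3*, *Rad21*, *Stag1*, *Stag2*, *Nipbl*, *Wapl*, *Pds5a* and *Pds5b*, found by their symbol among 26656 genes. The cells, labelled wild type (WT), were transfected with a single shRNA plasmid against *Npm1* (NPM1 KD) or with a non-target shRNA plasmid (CTR), and RNA was taken after 72 h. Selection with puromycin at 9.3 µg/ml from 24 h on is stated for the knockdown experiments. There were 3 libraries per condition, 6 in all, and effects of the one hairpin other than on *Npm1* cannot be told apart from those of reduced NPM1.

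CTCF is a zinc finger protein that binds DNA at the borders of chromatin loops. Cohesin is a ring of SMC1A, SMC3 and RAD21, to which STAG1 or STAG2 is added. The ring is loaded onto DNA with the help of NIPBL, extrudes a loop until it meets CTCF, and is taken off by WAPL, with PDS5A and PDS5B acting on its release and its stability. The same ring holds sister chromatids together until mitosis. NPM1 is known to bind CTCF, and the experiment asked whether the transcriptome of N2a cells changes when reduced NPM1 alters H3K79me2, a histone mark of transcribed genes.

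None of the 10 genes passed the threshold upon NPM1 KD. In the fit used, a step of 1.00 without any spread within conditions, as in *Nipbl*, did not pass. The lack of calls thus says little about changes of that size or smaller. *Nipbl*, the loader, had a value 1.00 higher on the log2 scale in every NPM1 KD library than in every CTR library, *Ctcf* was 0.67 higher and *Rad21* 0.67 lower on average, and the remaining 7 genes differed by 0.33 or less. The values are regularized log (rlog) values, which are on the log2 scale, normalized for library size and shrunk for genes with few reads. Each value of 1 or more in size was deposited as a whole number. Rounding alone thus allows the difference between conditions to lie up to 1 below or above the one computed. A lower RNA level in bulk cells can come from fewer cells with the RNA or from less RNA per cell, and these cannot be told apart.

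The libraries differed in depth with the condition. Genes with a single read gave the relative depth of each library, which was 1.11 to 1.3 in CTR and 0.784 to 0.961 in NPM1 KD, so depth and condition cannot be told apart. The authors' mean normalized counts summed to 841220. Of 15 sympathoadrenal and neuronal markers, 10 were expressed highly enough to be tested. Of these, 0 passed the threshold as higher and 2 as lower, against 0.0695% and 0.417% of all tested genes. The 2 were the granins *Chga* (7, 7 and 7 in CTR against 5, 6 and 6 in NPM1 KD) and *Chgb* (8, 8 and 7 against 6, 6 and 6). On average 7 of the 10 were lower and 1 was higher, with a median difference of −1.0, and in 6 the NPM1 KD libraries lay below all CTR libraries (*Chga*, *Chgb*, *Isl1*, *Tubb3*, *Stmn2* and *Gap43*), as in 3.41% of all tested genes. This shift of the markers moved with the condition, and its part in the values of the 10 genes was not tested. The neurofilament genes *Nefl* and *Nefm* were listed at 0, as were 6 of 6 immune, 4 of 7 fibroblast and 3 of 5 glial markers. The remaining fibroblast and glial markers were below the minimum for testing.

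*Npm1* (ENSMUSG00000057113), the target of the knockdown, stood at 10 in the 3 CTR libraries and at 8 in the 3 NPM1 KD libraries. Its difference was −2.0 (standard error 0.33, n = 3 per condition, limma, adjusted p = 3.23e-06). Limma was run with a trend of the variance over intensity, and any variance within conditions under 0.0833, which is what rounding by itself contributes, was set to that number. Two-sided p-values were adjusted (Benjamini-Hochberg) over 5752 genes, those averaging an rlog value of 3.32 (the log2 of 10) or more. Of the 10 genes, 8 were tested, and *Stag1* and *Pds5a* were below this minimum. Among all tested genes, 4 passed an adjusted p of 0.05 as higher (0.0695%) and 24 as lower (0.417%), against 0 and 0 of the 8. At an unadjusted p below 0.05, limma gave 2 of the 8 as higher (*Nipbl* and *Ctcf*, background 6.07%) and 1 as lower (*Rad21*, background 8.07%).

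**Figure D1:**
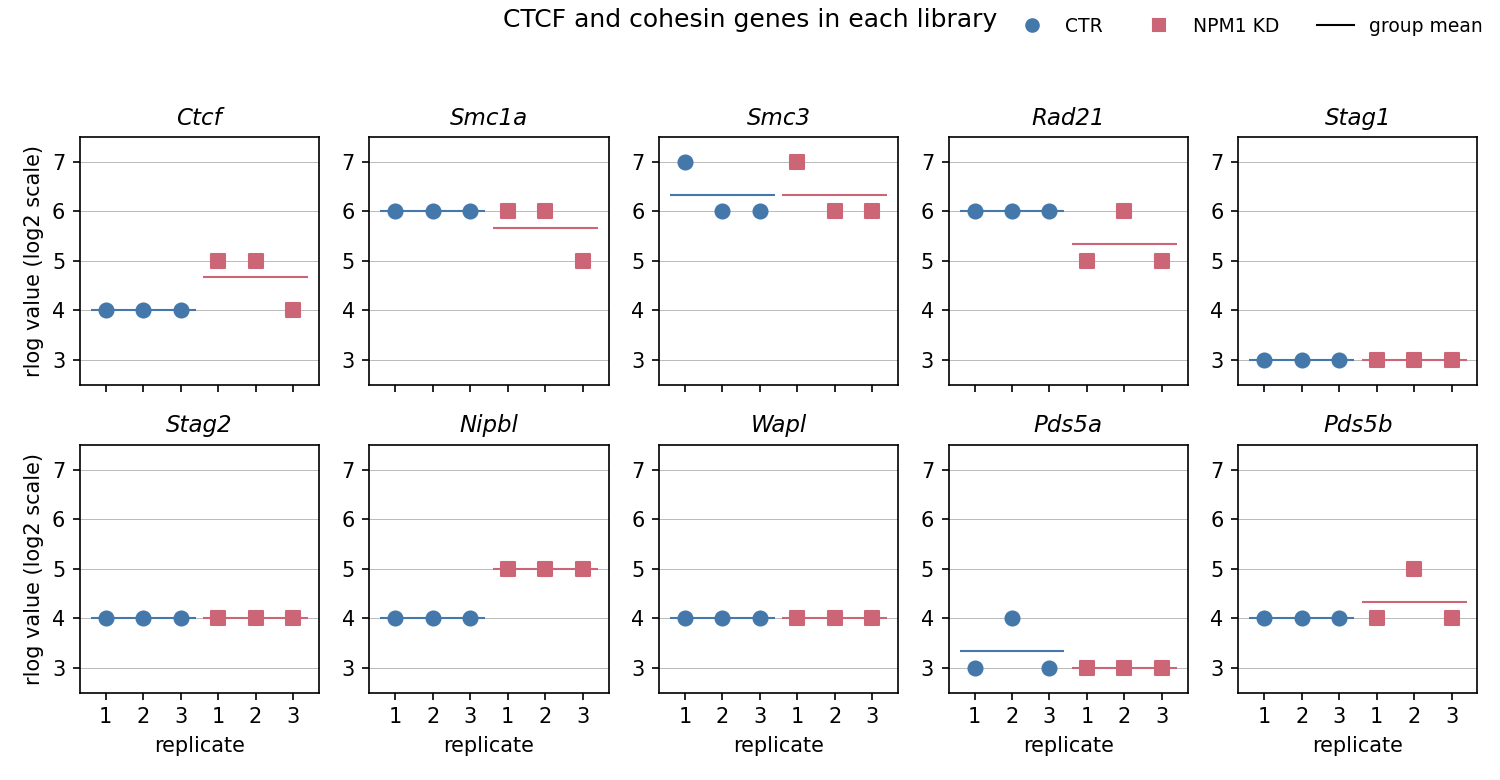
Rlog value (log2 scale) of each of the 10 genes in the 3 CTR libraries (circles) and the 3 NPM1 KD libraries (squares), with the mean of each condition as a line. Only *Nipbl* has all NPM1 KD libraries above all CTR libraries, at 5 against 4, and *Stag1*, *Stag2* and *Wapl* have 1 value in all 6 libraries.

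*Ctcf* (ENSMUSG00000005698) stood at 4 in CTR replicates 1, 2 and 3, while NPM1 KD replicates 1, 2 and 3 were at 5, 5 and 4. NPM1 KD replicate 3 therefore had the value of the controls, and the conditions overlapped. The mean was 4.0 ± 0.0 in CTR and 4.67 ± 0.58 in NPM1 KD (SD, n = 3), a difference of 0.67 with a 95% interval of 0.01 to 1.32, and it did not pass the threshold (limma, adjusted p = 0.33). Rounding allows −0.33 to 1.67 for this difference. Without NPM1 KD replicate 3 it was 1.00 (limma, adjusted p = 0.235), and without NPM1 KD replicate 1 or 2 it was 0.50. The authors' mean normalized count of *Ctcf* was 25.4, at which counting error alone gives a standard deviation of about 0.29 on the log2 scale in a library of average depth.

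The sequence before the start of *Ctcf* is given here beside those of *Pds5a* and *Pds5b*, since these 3 hold the same motif of E2F, the transcription factor family of the cell cycle, and can be set against their RNA values. RefSeq's promoter windows for the build GRCm38.p6 matched 7 of the 10 genes by symbol (*Ctcf*, *Smc1a*, *Smc3*, *Stag1*, *Wapl*, *Pds5a* and *Pds5b*). The 250 bases before the annotated start were searched, and they are printed 5′ to 3′ on the strand of the gene, with each match to TTGGCGC or its reverse complement in capitals.

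Ctcf, chr8:105636288-105636537, + strand: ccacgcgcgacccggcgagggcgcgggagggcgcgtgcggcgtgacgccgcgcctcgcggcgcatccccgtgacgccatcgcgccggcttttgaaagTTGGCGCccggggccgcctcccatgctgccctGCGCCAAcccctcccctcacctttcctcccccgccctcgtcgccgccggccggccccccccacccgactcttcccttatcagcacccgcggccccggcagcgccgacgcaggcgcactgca

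Pds5a, chr5:65698237-65698486, - strand: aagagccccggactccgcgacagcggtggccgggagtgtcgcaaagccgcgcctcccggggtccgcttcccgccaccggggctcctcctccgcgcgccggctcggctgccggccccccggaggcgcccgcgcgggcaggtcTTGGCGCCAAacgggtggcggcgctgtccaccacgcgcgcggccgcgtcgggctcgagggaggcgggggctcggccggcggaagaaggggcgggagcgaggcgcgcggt

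Pds5b, chr5:150673577-150673826, + strand: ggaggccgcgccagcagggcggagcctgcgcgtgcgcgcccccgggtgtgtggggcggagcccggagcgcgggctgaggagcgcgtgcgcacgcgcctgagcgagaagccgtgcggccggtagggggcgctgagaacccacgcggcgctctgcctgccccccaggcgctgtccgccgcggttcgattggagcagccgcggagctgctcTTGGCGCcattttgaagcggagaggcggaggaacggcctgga

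The E2F motif TTGGCGC, read on both strands, was present in 3 of the 7 windows and in 1.98% of all 32536 windows of this length. *Ctcf* holds it at 2 places, once on each strand, which end 146 and 114 bases before the start. In *Pds5a* the matches on both strands overlap in one palindrome and end 102 and 99 bases before the start. The single match of *Pds5b*, which ends 35 bases before the start, overlaps a YY1 motif (CCATNTT, both strands), which 2 of the 7 windows and 12.4% of all windows hold. The SP1 motif GGGCGG was in 7 of 7 windows (33% of all), the CCAAT box CCAAT in 4 (33.8% of all), the palindromic NRF1 motif TGCGCA in 1 (6.46% of all) and the ETS motif CCGGAAG in 0 (6.95% of all). The windows of the 7 genes were 56.8% to 80.4% G and C, against a median of 52.4% over all windows. They held 16 to 44 CpG, against a median of 6. The 3 with the E2F motif were the richest in G and C (77.6% in *Ctcf*, 80.4% in *Pds5a* and 75.6% in *Pds5b*). The shares over all windows are thus not shares over windows of like composition, and no enrichment was tested. The motifs were chosen after some of the windows had been read. The 3 genes with the E2F motif had differences of 0.67 for *Ctcf*, −0.33 for *Pds5a* (fit without a minimum) and 0.33 for *Pds5b*, and none of these passed the threshold. Rounding allows either sign for each, with ranges of −0.33 to 1.67, −1.33 to 0.67 and −0.67 to 1.33. Whether the 3 genes share a direction thus cannot be read from these values.

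Among the subunits of the cohesin ring, no gene was higher on average in NPM1 KD. *Rad21* (ENSMUSG00000022314), the kleisin that closes the ring and is cut when sister chromatids separate, was at 6 in each CTR library and at 5, 6 and 5 in NPM1 KD. NPM1 KD replicate 2 had the value of the controls. The difference was −0.67 (95% interval −1.33 to 0.00, rounding −1.67 to 0.33), which did not pass the threshold (limma, adjusted p = 0.33), and it was −1.0 without NPM1 KD replicate 2 (limma, adjusted p = 0.198) and −0.50 without NPM1 KD replicate 1 or 3 (limma, adjusted p = 0.778 and 0.727). *Smc1a* (ENSMUSG00000041133), an arm of the ring encoded on the X chromosome, was at 5 in NPM1 KD replicate 3 and at 6 in the other 5 libraries. Its difference of −0.33 (95% interval −1.0 to 0.33, limma, adjusted p = 0.713) rests on that library, without which it was 0.00.

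*Smc3* (ENSMUSG00000024974), the other arm, had the values 7, 6 and 6 in CTR and again 7, 6 and 6 in NPM1 KD. In each condition replicate 1 had the higher value, and both means were 6.33 ± 0.58 (SD, n = 3). Its mean normalized count of 88.5 gives a counting error of 0.15 on the log2 scale per library, and its difference of 0.00 had a 95% interval of −0.68 to 0.68.

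The STAG subunits bind RAD21 and complete the complex. *Stag2* (ENSMUSG00000025862) stood at 4 in all 6 libraries, and the 95% interval of its difference of 0.00 was −0.68 to 0.68. *Stag1* (ENSMUSG00000037286) stood at 3 in all 6 libraries. With a mean normalized count of 9.04 it was below the minimum, and in the fit without a minimum the interval was −0.63 to 0.63. A single value in all libraries was common, as it was for 40.2% of the tested genes. A change in either *Stag* gene smaller than the rounding was not detectable.

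*Nipbl* (ENSMUSG00000022141), which loads cohesin and is the gene most often mutated in Cornelia de Lange syndrome, was at 4 in each CTR library and at 5 in each NPM1 KD library. It was the one gene of the 10 whose conditions did not overlap, a separation in this direction that 2.19% of the tested genes had. The difference was 1.00 (standard error 0.33, 95% interval 0.35 to 1.65, n = 3 per condition). It did not pass the threshold with limma (unadjusted p = 0.00248, adjusted p = 0.0791). Because a value just below and one just above the rounding point are deposited 1 apart, rounding by itself allows any difference from 0.00 to 2.0. The mean normalized count of *Nipbl*, which was not used to narrow this range, was 24.9. The counting error at this count was about 0.29 on the log2 scale per library. Of the 132 tested genes with a difference of 1 or more upwards (2.29%), *Nipbl* among them, 4 passed the threshold, and a difference of 1 or more downwards, found in 218 tested genes (3.79%), was found in 0 of the 8.

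The call for *Nipbl* depended on how the variance was modelled. Without the limit on the variance its adjusted p from limma was 1.01e-11, since its 3 values are equal in each condition, and without the intensity trend it was 0.0304. With 1 library left out it was 0.182 to 0.248, while the difference stayed at 1.00. In every fit made, *Nipbl* had an unadjusted p below 0.05, and it was the only one of the 10 genes of which this holds.

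**Figure D2:**
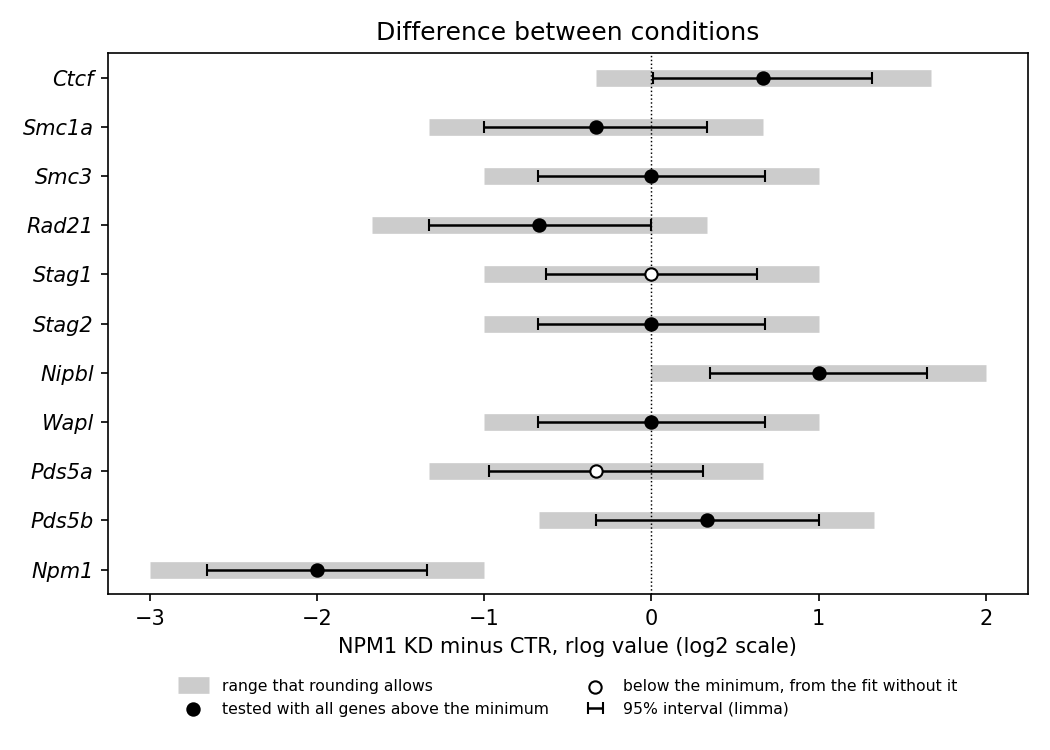
Difference between the mean rlog values of NPM1 KD and CTR for each of the 10 genes and for *Npm1*, with the 95% interval from limma (line) and the range that rounding to whole numbers allows (grey bar). Open points are *Stag1* and *Pds5a*, taken from the fit without a minimum. The 95% interval of *Nipbl*, 0.35 to 1.65, lies above 0 while its rounding range begins at 0.00, and both ranges of *Npm1* lie below 0.

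The genes for release and stability of the ring showed no common direction. *Wapl* (ENSMUSG00000041408), which opens the ring, was at 4 in all 6 libraries, with a difference of 0.00 (95% interval −0.68 to 0.68). *Pds5b* (ENSMUSG00000034021) was at 5 in NPM1 KD replicate 2 and otherwise at 4, a difference of 0.33 (95% interval −0.33 to 1.00, limma, adjusted p = 0.713) that was 0.00 without this library. *Pds5a* (ENSMUSG00000029202), its paralog, was at 4 in CTR replicate 2 and otherwise at 3. Its mean normalized count was 10.1, and the fit without a minimum gave a difference of −0.33 (95% interval −0.97 to 0.31, limma, adjusted p = 1). For both *Pds5* genes 1 library made the whole difference.

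Over the 10 genes, 48 of the 60 values were equal to the most frequent value of their gene, and no gene spanned more than 1 within a condition. Of the 8 tested genes, 3 were higher on average in NPM1 KD, 2 lower and 3 equal, with a median difference of 0.00. Of all tested genes 24.6% were higher, 27.4% lower and 48% equal, also with a median of 0.00. *Nipbl* deviated in all 3 NPM1 KD libraries, and *Ctcf* and *Rad21* in 2 of the 3. NPM1 KD replicate 1 had 3 genes above the most frequent CTR value (*Ctcf*, *Nipbl* and *Smc3*) and 1 below (*Rad21*), replicate 2 had 3 above (*Ctcf*, *Nipbl* and *Pds5b*) and 0 below, and replicate 3 had 1 above (*Nipbl*) and 2 below (*Smc1a* and *Rad21*).

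**Figure D3:**
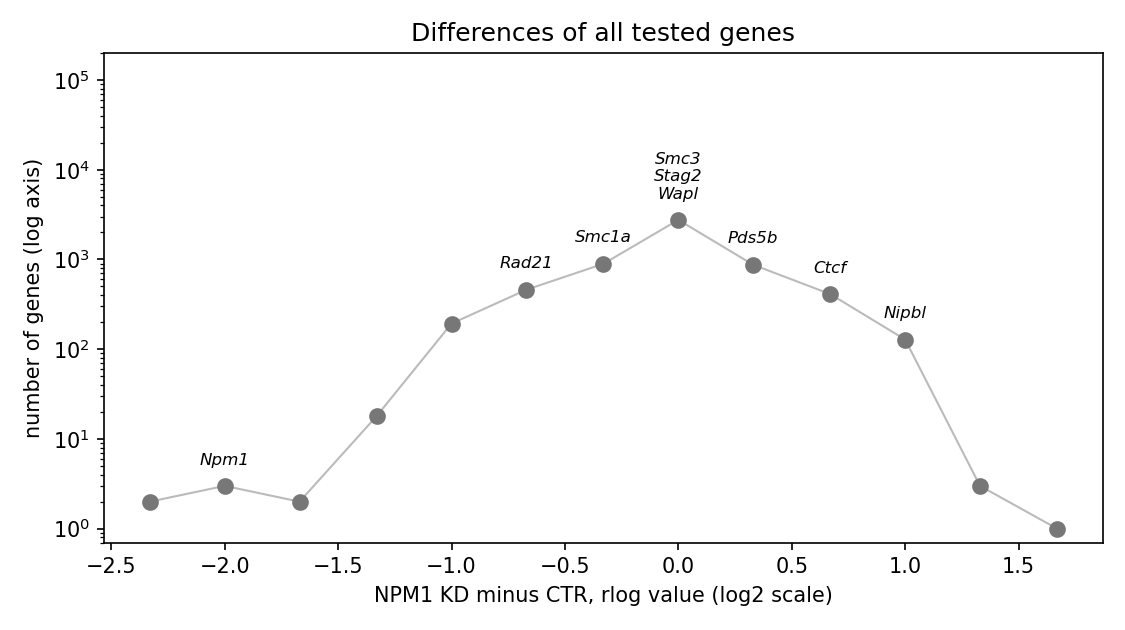
Number of tested genes (log axis) at each difference between NPM1 KD and CTR, with the 8 tested genes and *Npm1* written above their difference. The highest point is at 0, with 2762 of 5752 genes, while 128 genes share the difference of 1.00 of *Nipbl* and 411 that of *Ctcf*.

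Within each library, the value of the loader was set against that of the ring. *Nipbl* minus *Rad21* was −2 in every CTR library, against 0, −1 and 0 in NPM1 KD replicates 1 to 3. *Nipbl* minus the mean of *Smc1a*, *Smc3* and *Rad21* was −2.33, −2.0 and −2.0 in the CTR libraries, against −1.0, −1.0 and −0.33 with NPM1 KD. These differences between genes were higher in each NPM1 KD library than in each CTR library. Rounding alone allows each of them to lie up to 1 below or above the value given, and the share of other gene pairs that separate was not computed. Rlog values are not scaled by length, and the transcript length is 9423 bases for *Nipbl* and 3956 for *Rad21*. How far length affects counts of these long reads was not tested, so only the course over libraries was read. This pair of genes was chosen after the values had been seen, the separation follows from the values given above, and it was not tested.

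Patterns as coarse as these are shared by many genes. The steps of *Nipbl*, equal in all 6 libraries, were found in 122 of the 5744 other genes compared (2.12%), of which *Blzf1*, *Ccdc137* and *Stau1* were nearest in mean normalized count. Those of *Ctcf* were found in 77 genes (1.34%), with *Sft2d1*, *Rpl31-ps20* and *Urm1* nearest, the second of which is a pseudogene with uncertain reads. Those of *Rad21* were found in 62 genes (1.08%), with *Gm15127*, *Lrrc42* and *Smim1* nearest. *Smc1a* shared its steps with 79 genes (1.38%; *Nfib*, *Trappc1* and *Prkaca* nearest), *Smc3* with 36 (0.627%; *Tbc1d15*, *Frg1* and *Capn2*) and *Pds5b* with 68 (1.18%; *Cluh*, *Ap1s2* and *Bag2*).

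Around the 10 genes, 50 further genes were listed that load, acetylate or release cohesin, replace its subunits in germ cells, form the related condensin and SMC5/6 complexes, or act with CTCF at loop anchors. Of these, 28 were tested, and limma called 0 in either direction. Steps of 1.00 without spread were not called here either (*Pttg1*, *Nsmce1* and *Top2b*), so the 0 says little about changes of that size or smaller. An unadjusted p below 0.05 was reached by 1 gene upwards and 4 downwards, against 6.07% and 8.07% of all tested genes. On average 3 of the 28 were higher (10.7%), 10 lower (35.7%) and 15 equal, against 24.6%, 27.4% and 48% of all tested genes, and the median difference was 0.00. Without CTR replicate 1, 7 of the 28 were lower (25%), against 29.3% of all tested genes.

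Of 16 genes that act on cohesin, 7 were tested. *Mau2*, the partner of NIPBL in the loader, was at 4 in all 6 libraries, and so were *Sgo1*, which protects centromeric cohesin, and *Aurkb*, a mitotic kinase. *Cdca5*, which encodes sororin, an antagonist of WAPL, was at 5 in all 6. The largest difference was that of *Pttg1*, which encodes securin, the inhibitor of separase. It was at 7 in each CTR library and at 6 in each NPM1 KD library, a difference of −1.0 that did not pass the threshold (limma, adjusted p = 0.0791). *Plk1*, a mitotic kinase that helps remove cohesin from chromosome arms, was at 7, 7 and 7 against 7, 6 and 6 (−0.67, limma, adjusted p = 0.33). The acetyltransferase genes *Esco1* and *Esco2* and the separase gene *Espl1* were each at 3 in all 6 libraries and below the minimum.

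Of the 5 germ cell paralogs, *Stag3*, *Smc1b*, *Rad21l* and *Ctcfl* were listed at 0 in every library. *Rec8*, the kleisin of meiosis, was at 4 in CTR replicate 2 and otherwise at 3, below the minimum.

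Condensin compacts mitotic chromosomes with a ring of the same SMC type, and 5 of its 8 subunit genes were tested. No tested subunit was higher, 3 were lower and 2 equal on average (median −0.33), against 24.6%, 27.4% and 48% of all tested genes. Without CTR replicate 1, or without NPM1 KD replicate 2, 2 of the 5 were lower and the median was 0.00. *Ncaph2* was at 6, 5 and 6 in CTR and at 5 in each NPM1 KD library (−0.67, limma, adjusted p = 0.33). *Smc4* was at 7 in CTR replicate 1 and at 6 in the other 5 libraries (−0.33, limma, adjusted p = 0.713), and *Smc2* was at 5 in all 6.

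SMC5/6 is another SMC complex, with a role in DNA repair, and 6 of its 8 genes were tested. Again no gene was higher, 4 were lower and 2 equal on average (median −0.33), and the same shares of all tested genes apply. *Nsmce1* was at 6 in each CTR library and at 5 in each NPM1 KD library (−1.0, limma, adjusted p = 0.0791), and *Nsmce3* was at 4 in each CTR library and at 3, 4 and 3 in NPM1 KD (−0.67, limma, adjusted p = 0.396). *Smc5* and *Smc6* were each at 6 in CTR replicate 1 and at 5 in all other libraries, and without that library 2 of the 6 genes were lower and the median was 0.00.

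Of 13 genes that act with CTCF or at loop anchors, 10 were tested, of which 3 were higher, 1 lower and 6 equal on average. *Top2b*, the topoisomerase found at CTCF sites, was at 4 in each CTR library and at 3 in each NPM1 KD library (−1.0, limma, adjusted p = 0.166). *Brd2*, a bromodomain protein, was at 6 in each CTR library and at 7, 7 and 6 in NPM1 KD (0.67, limma, adjusted p = 0.33), the same steps as *Ctcf*. *Vezf1*, a zinc finger protein, was at 5 in each CTR library and at 6, 5 and 6 in NPM1 KD, with the same difference of 0.67 (limma, adjusted p = 0.33), and it was the 1 listed gene with an unadjusted p below 0.05 upwards (0.0457 with limma). *Yy1*, *Maz*, *Wiz*, *Chd8*, *Parp1* and *Ddx5* each had 1 value in all 6 libraries. *Adnp* was listed at 0 in every library, and such a 0 need not mean that its RNA was absent. *Pttg1*, *Nsmce1* and *Top2b*, whose conditions did not overlap, were lower, a separation that 3.41% of the tested genes had, and they passed the threshold without the limit on the variance and without the intensity trend, as *Nipbl* did in the other direction.

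**Figure D4:**
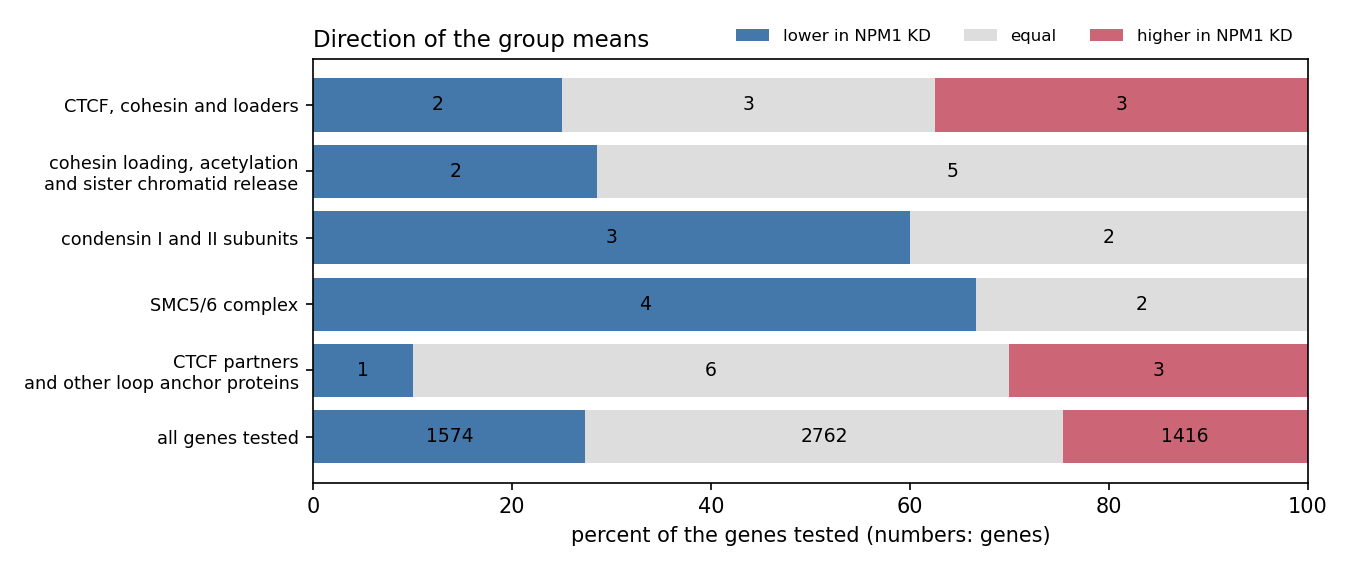
Share of the tested genes of each list with a lower, equal or higher mean rlog value in NPM1 KD than in CTR (percent of the genes tested; numbers in the bars are genes). In the condensin and SMC5/6 lists 3 and 4 genes are lower and none is higher, while the 8 tested genes of CTCF and cohesin divide into 2 lower, 3 equal and 3 higher, and none of these genes passed the threshold.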

How the data were processed

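RNA of 3 CTR and 3 NPM1 KD libraries was sequenced as long reads from PCR-amplified cDNA. The submitters' processing notes name minimap2, featureCounts and DESeq2 and the build GRCm39; versions, annotation and strand setting are not given in the sources used here. The description of the study gives 3 biological replicates per condition and the treatment protocol 2. The spread between these libraries may thus in part be technical. With the limit on the variance and the trend, standard errors hardly followed a gene's own spread. *Nipbl* (SD 0.00 in CTR and NPM1 KD) and *Ctcf* (0.00 and 0.58) had 0.33. *Stag2* (0.00 and 0.00) had 0.35 and *Smc3* (0.58 and 0.58) had 0.34. The p-values and intervals of these genes therefore say little about how their own 3 libraries per condition vary. The authors deposited rlog values (log2 scale, decimal commas, rounded to whole numbers at a size of 1 or more) and, per gene, a mean normalized count over all 6 libraries. Their own fold changes and p-values are in the second table and were not used. Of 26913 rows, 257 repeated a gene ID under another symbol with equal values and were dropped, which left 26656 genes, 11880 of them at 0 in every library.

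Limma 3.58.1 (R 4.3.3; lmFit, eBayes with trend) was applied to genes averaging an rlog value of 3.32 or more, with variances within conditions raised to at least 0.0833. Over the tested genes, log2 of the mean normalized count exceeded the mean rlog value by a median of 0.04, as rounding to the nearest whole number would leave it. Relative depths are 1 divided by 6 times the mean normalized count of a gene with 1 read, and the library was the one with the highest value among genes whose reads all fell in 1 library. Total reads per library are unknown. Counting errors are Poisson and leave out PCR, whose copies are not independent molecules. The GENCODE M21 annotation (GRCm38) lists genes on the opposite strand within *Ctcf*, *Smc1a*, *Stag1*, *Stag2*, *Pds5a* and *Pds5b*, whose reads cannot be told apart without strand. It also lists overlapping genes on the same strand for *Stag1*, *Pds5a* and *Pds5b*, which strand would not separate.

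The 10 genes, the lists and the tests were chosen with earlier results of these data known. Named were the 10 genes, *Npm1*, from every other list the genes past the threshold and the 2 with the largest difference, and up to 3 genes whose steps above their own lowest value were equal to those of a member in the most libraries, nearest in mean normalized count. Further listed genes were named for their role because they were listed at 0, or, as *Vezf1*, *Isl1*, *Tubb3*, *Stmn2* and *Gap43*, after their values were seen. The value of 1 marker is not reported here. Alternatives were no limit on the variance, no trend, a replicate block, no minimum, a minimum of log2 of 20, centring of the libraries, leaving out each library, and, chosen after the repeats had been seen, keeping repeated rows.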

Additional observations from a re-analysis of the deposited data

How the results depend on the processing

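The differences of *Ctcf*, *Nipbl*, *Rad21*, *Smc1a* and *Pds5b* kept their direction or became 0 under the 13 alternatives, those of *Stag2* and *Wapl* lay between 0.00 and 0.02, and that of *Smc3* lay between −0.33 and 0.33, the ends being reached with 1 library left out. With a minimum of log2 of 20, *Stag2*, *Wapl* and *Pds5b* were not tested. The call changed for *Nipbl* only, with 1 of the 8 tested genes called higher without the limit on the variance and 1 without the intensity trend. In these 2 fits 3 of the 28 further listed genes tested (*Nsmce1*, *Pttg1* and *Top2b*) were called, all lower. Of all 5752 genes tested, 123 were called higher and 178 lower without the limit on the variance, and 132 and 218 without the trend. Without a minimum, where 14776 genes were tested, 1 was called higher and 10 lower. Leaving out 1 library gave 0 to 2 higher and 5 to 9 lower, with fewer libraries in the fit. The replicate block gave 1 higher and 7 lower, with no member called. Same-numbered libraries showed no shared deviation (correlations of 0.009, 0.001 and 0.030), but rounding to whole numbers can hide one. Of the tested genes, 40.2% had 1 value in all 6 libraries. Whether the libraries were paired thus cannot be read from these values, and the numbers were taken as pairs in the replicate block only. *Npm1* was called lower in every fit. A minimum of log2 of 20 gave 3 higher and 22 lower. Centring the libraries and keeping the repeated rows changed neither count of called genes, but with centring *Rad21* no longer had an unadjusted p below 0.05. Rounding and depth limit the smaller differences.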
